A study of Zea mays with 2 samples.

Results

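A set of 163 maize genes had no read in wild-type endosperm and a level of at least 3 RPKM in endosperm of the defective kernel mutant dek44, out of 41406 gene models measured. RPKM scales the reads of a gene to the length of its model and to the size of the library. The genes were found by joining the values of both genotypes and keeping those with an RPKM of 0 in wild type and of 3 or more in dek44. The glutathione S-transferase gene gst20 (GRMZM2G056388), at 18.98 RPKM in dek44 and 0 in wild type, met the same limits and was left out by name. With gst20, 164 gene models met them, which is 0.396% of all gene models. The levels therefore chose the genes and are given as a description, with no test.

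RNA came from endosperm, the tissue that stores starch and protein in the kernel, of the dek44 mutant and of wild type (Zea mays), both 15 days after pollination. The labels name the genotypes as dek44 and wild type only. The allele, the inbred background and the number of kernels pooled are not stated in the sources used here. Each genotype had 1 column of values, although the series text speaks of triplicates, so nothing below has a replicate check and each statement is about these libraries. The question was which transcripts differ in the mutant endosperm.

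Defective kernel mutants are seed mutants in which endosperm and embryo development is disturbed, and Dek44 is known from the literature to encode a protein of the mitochondrial ribosome. In normal kernels at this age the endosperm is filling, and genes of zein storage proteins and starch are among its most abundant transcripts. The genes described here were chosen by level and not by pathway, so the named ones are described by the role of their family.

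Throughout, a gene is counted as higher or lower where (dek44 RPKM + 1)/(wild-type RPKM + 1) differs from 1 by 2-fold or more, among genes that reach 1 RPKM in either library. This scale understates the change of low genes. Over all 30136 such genes, 31.6% were higher and 3.7% lower. The median log2 ratio was 0.62, so most genes had a higher RPKM in dek44. Dividing dek44 by the median plain ratio of 1.67 gave 12.3% higher and 9.75% lower. Each of the 163 genes passes the 2-fold limit through the rule, so their own count says nothing more. Relatives of the named genes were grouped by name after the levels had been seen.

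The RPKM values gave back a depth of 22612657 reads in the dek44 library, against 20861135 reads in that of wild type. Of 11 gene models with endosperm marker names, 10 were lower in dek44 and 1 was higher, and none of them was at 0. Their summed levels were 36820.5 RPKM in dek44 and 158973 RPKM in wild type. The higher one was GRMZM2G039942, at 29.5 RPKM in dek44 and 1.95 in wild type. It shares the name ae1 with GRMZM2G032628, at 456 in dek44 and 1081 in wild type. Markers of the basal transfer layer, which imports nutrients from the mother plant, summed to 2349 RPKM in dek44 and 277 RPKM in wild type over 6 genes, and 5 were higher. Markers of the embryo-surrounding region summed to 118 RPKM in dek44 and 8.27 RPKM in wild type over 2 genes, and both were higher. Embryo markers summed to 459 RPKM in dek44 and 316 RPKM in wild type over 6 genes, and 3 were higher. Ole1 held most of these sums, at 372 RPKM in dek44 and 289 in wild type, and was not among the higher. The gene models named glb1 differed, with GRMZM2G067402 at 28.1 RPKM in dek44 and 0.0832 in wild type, and GRMZM2G067919 at 40.4 and 23.9. Green tissue markers summed to 456 RPKM in dek44 and 478 RPKM in wild type over 3 genes found for 8 names, and 1 was higher. Most of both sums was ppdk1, at 425 RPKM in dek44 and 472 in wild type, so the sums describe that gene and are no measure of green tissue. The higher gene was pep1, at 29.1 RPKM in dek44 and 1.68 in wild type, and me1 had 2.08 and 3.72. Aleurone markers summed to 3.23 RPKM in dek44 and 0.493 RPKM in wild type over 4 genes, with 1 higher and 3 listed at 0 in a library. None of these markers was among the 163 genes, and the part of a changed mix of cell types in their levels was not tested. In bulk tissue, more cells of a type and more RNA per cell cannot be told apart.

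The 163 genes were mostly low in dek44. Their RPKM ran from 3.003 to 107.5 with a median of 4.87, beside a median of 14.2 over all 22952 gene models at 3 or more in dek44. Of the 163, 53 lay from 3 to under 4, 33 from 4 to under 5, 49 from 5 to under 10, 20 from 10 to under 20, and 8 at 20 or more. Together they made up 0.0929% of summed dek44 RPKM. The 12 highest held 29.9% of the sum over the 163 genes.

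**Figure D1:**
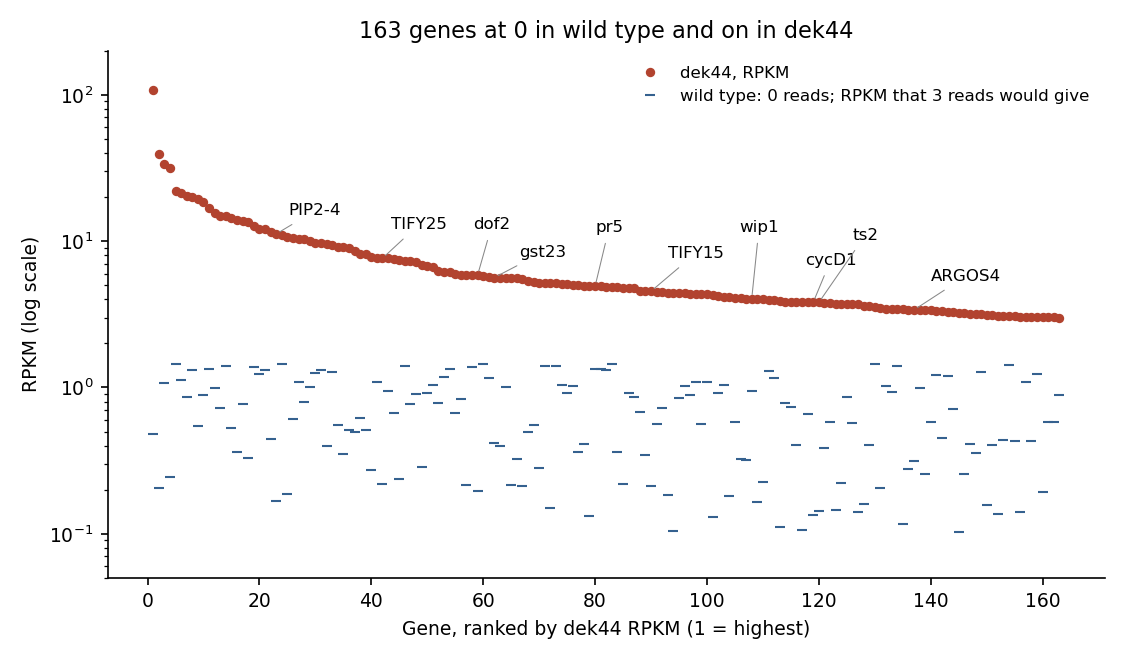
Points give the dek44 RPKM (log scale) of the 163 genes, ranked from the highest at 107.5 to the lowest at 3.003, and blue dashes give the RPKM that 3 wild-type reads would have given for the same gene, since wild type had 0 reads. The 10 genes with a name in RefSeq are labelled, and the highest of them, PIP2-4, ranks 23rd in the set.

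The highest gene, GRMZM2G075315, had 107.5 RPKM in dek44 and 0 in wild type, rank 1854 among all gene models in dek44. RefSeq lists it as protein-coding with only a marker name. It rested on at least 732 reads in dek44, and against a floor of 3 wild-type reads it was at least 225-fold higher (lower end of the 95% counting interval 183). Here and below, "at least" before a fold takes the reads as exact, and the lower end allows for counting error. GRMZM6G257110 followed with 39.2 RPKM in dek44 and 0 in wild type, from at least 617 reads, at least 190-fold higher (lower end 154). GRMZM2G152822 had 31.8 RPKM in dek44 and 0 in wild type, from at least 425 reads, and was at least 131-fold higher (lower end 106).

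GRMZM5G837113 stood between these at 33.4 RPKM in dek44 and 0 in wild type, but from a smallest read number of 102. The next 8 genes lay between 15.4 and 22.1 RPKM in dek44, all at 0 in wild type. They were GRMZM2G085975, EF517601.1_FG016, GRMZM2G536483, AC233910.1_FG003, GRMZM2G137821, GRMZM2G146319, GRMZM2G058451 and GRMZM2G054658, in falling order. Of the 12 highest, 3 were matched in the reference (GRMZM2G075315, GRMZM6G257110 and GRMZM2G058451), and none carried a name beyond a locus or marker number. The highest genes are thus known here only by their identifiers.

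The named genes were lower. The reference gave a name to 10 of the 163 genes, all of them protein-coding.

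PIP2-4 (GRMZM2G154628), a plasma membrane aquaporin that lets water cross the membrane, was the highest named gene, at 11.2 RPKM in dek44 and 0 in wild type. At least 219 reads stood behind the dek44 value, and it was at least 67.3-fold higher (lower end of the 95% counting interval 54.3). Its abundant relatives were lower in dek44. PIP2-1 (GRMZM2G014914) had 133 RPKM in dek44 against 391 in wild type, 2.94-fold lower (95% interval 2.82 to 3.07). ZmPIP2-2 (GRMZM2G092125) had 79.1 RPKM in dek44 against 504 in wild type, 6.38-fold lower (6.05 to 6.73). PIP1-3 (GRMZM2G392975) had 0.908 RPKM in dek44 and 4.76 in wild type. PIP1-1 (GRMZM2G174807) had 6.86 RPKM in dek44 against 1.997 in wild type, 3.43-fold higher. It rested on at least 67 reads in dek44 and at least 5 in wild type. Of the 4 relatives that reached 1 RPKM in either library, 1 was thus higher and 3 were lower. With the median ratio of genes set to 1, 0 were higher and 3 lower. PIP2-4 stayed well under PIP2-1 and ZmPIP2-2 in dek44.

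Both TIFY genes carry the name of a family that includes the JAZ repressors of jasmonate signalling. TIFY25 (GRMZM2G116614, also ZIM28) had 7.64 RPKM in dek44 and 0 in wild type, from at least 113 reads, and was at least 34.7-fold higher (lower end 27.8). TIFY15 (GRMZM2G005954) had 4.55 RPKM in dek44 and 0 in wild type, from at least 70 reads, at least 21.5-fold higher (lower end 17.0). Of 17 other TIFY genes that reached 1 RPKM, 7 were higher and 0 lower. After the median ratio was set to 1, 5 were higher and 0 lower. Their median log2 ratio was 0.69, beside 0.62 over all genes, and it was -0.04 after that scaling.

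Ratios differed between relatives. TIFY2 (GRMZM5G838098) had 10.99 RPKM in dek44 against 1.03 in wild type, 10.7-fold higher (6.31 to 19.5). TIFY27 (GRMZM2G089736) had 35.9 RPKM in dek44 against 5.89 in wild type, 6.10-fold higher (4.86 to 7.75). TIFY1 (GRMZM2G343157) had 9.44 RPKM in dek44 and 1.46 in wild type. An abundant relative, TIFY30 (GRMZM2G143402), had 70.6 RPKM in dek44 and 43.4 in wild type. TIFY29 (GRMZM2G036288) was also at 0 in wild type but reached only 0.563 RPKM in dek44. The median of the family was thus near that of all genes.

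CycD1 (GRMZM2G006721), a D-type cyclin of the kind that drives entry into DNA replication, had 3.83 RPKM in dek44 and 0 in wild type. At least 92 reads stood behind it, and it was at least 28.3-fold higher (lower end 22.5). The D-type relative cycD2 (GRMZM2G075117) was abundant in both libraries, at 64.5 RPKM in dek44 against 38.7 in wild type, 1.67-fold higher (1.53 to 1.81). CycD4 (GRMZM2G133413) was under 1 RPKM in both, at 0.949 in dek44 against 0.0411 in wild type. Of 9 other genes with a cyclin name that reached 1 RPKM, 5 were higher and 0 lower, and setting the median ratio to 1 gave the same counts. Among them cyclin9 (GRMZM2G017081) had 12.1 RPKM in dek44 against 0.392 in wild type, 31.0-fold higher (17.5 to 60.5). Cyc1 (GRMZM2G034647) had 10.2 RPKM in dek44 and 0.358 in wild type. Both had reads in wild type, unlike cycD1.

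ARGOS4 (GRMZM2G066029, also ZAR4) belongs to a family named in Arabidopsis for its effect on organ size. It had 3.39 RPKM in dek44 and 0 in wild type, from at least 35 reads, and was at least 10.8-fold higher (lower end 8.30). The relative ARGOS8 (GRMZM2G354338) had 10.7 RPKM in dek44 against 26.9 in wild type, 2.51-fold lower (1.94 to 3.27). ZAR3 (GRMZM2G137546) had 3.64 RPKM in dek44 and 0.607 in wild type, but its 95% interval for the fold reached from 1.36 to 54.7. Of 6 relatives 1 was higher and 1 lower, and with the median ratio set to 1, 0 were higher and 2 lower.

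**Figure D2:**
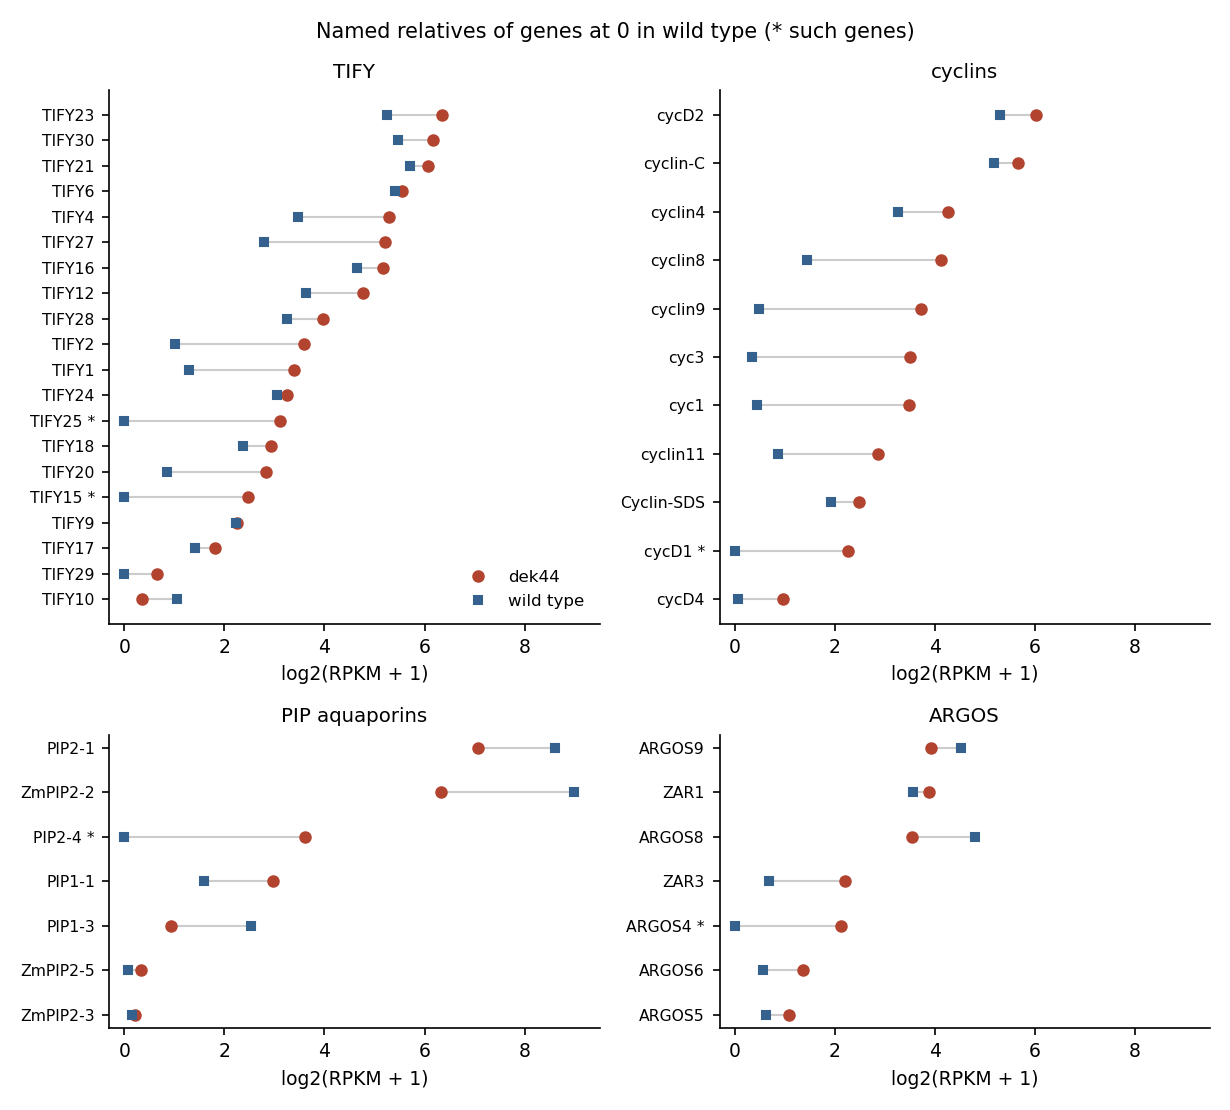
Each row is a gene with a family name in RefSeq, the x axis is log2(RPKM + 1), circles are dek44 and squares wild type, and asterisks mark genes of the set, whose wild-type value is 0. PIP2-4 moves opposite to the abundant PIP2-1 (133 RPKM in dek44, 391 in wild type), whereas cycD1, TIFY25 and TIFY15 stand among relatives that mostly lie further right in dek44, although with the median ratio set to 1 the TIFY relatives have a median log2 ratio of -0.04.

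Dof2 (GRMZM2G009406), a plant zinc finger transcription factor, had 5.86 RPKM in dek44 and 0 in wild type. It rested on at least 97 reads and was at least 29.8-fold higher (lower end 23.8). Of its named relatives DOF36 (GRMZM2G137502) was abundant and less different, at 109 RPKM in dek44 and 73.5 in wild type, while DOF22 (GRMZM2G171852) had 0.411 RPKM in dek44 and 0 in wild type.

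Ts2 (GRMZM2G455809) is tasselseed2, a short-chain dehydrogenase gene required to stop pistil growth in the tassel. It had 3.81 RPKM in dek44 and 0 in wild type, from at least 87 reads, and was at least 26.8-fold higher (lower end 21.3). Ts1 (GRMZM2G104843), the lipoxygenase gene whose loss gives the same tassel phenotype, had 3.31 RPKM in dek44 against 0.866 in wild type, 3.82-fold higher (2.80 to 5.29). It counted as higher by 2-fold or more as deposited, but with the median ratio set to 1 its log2 ratio was 0.67 and it did not.

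Wound and stress genes made up the rest of the named ones. Gst23 (GRMZM2G416632), a glutathione S-transferase gene, had 5.64 RPKM in dek44 and 0 in wild type, from at least 44 reads, at least 13.5-fold higher (lower end 10.5). With gst20 it belongs to a family in which 16 of 18 other named genes that reached 1 RPKM were higher in dek44 and 0 lower, and with the median ratio set to 1, 11 were higher and 0 lower. Pr5 (GRMZM2G402631), a thaumatin-like pathogenesis-related protein gene, had 4.91 RPKM in dek44 and 0 in wild type. Its relative by name, PR10 (GRMZM2G112524), had 32.4 RPKM in dek44 against 4.19 in wild type, 7.73-fold higher (5.60 to 10.9). Wip1 (GRMZM2G156632), a wound-induced protease inhibitor gene, had 4.05 RPKM in dek44 and 0 in wild type.

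Pr5 and wip1 were the least supported of the named genes. The smallest read numbers that give their values were 12 and 14, so the bounds were only 3.69-fold (lower end 2.56) for pr5 and 4.31-fold (lower end 3.06) for wip1. The smallest length that goes with the 12 reads of pr5 is 108 bases, so its true read number may be a multiple of 12. Pr5 shared its dek44 value of 4.91 RPKM with GRMZM2G346118, and GRMZM2G531565 and GRMZM2G339743 shared 3.02 RPKM. Whether such pairs are gene copies that share reads was not tested.

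Read support differed widely within the set. An RPKM value comes from whole reads and a whole gene length, so reads could be recovered from it once the library total was known. The smallest read number that fits was used, so each such number is a minimum. Each fold bound is a minimum only in this sense, with the reads taken as exact and wild type at its floor. Counting error allows lower folds, down to the lower ends given. The bounds use RPKM as deposited, so scaling by the median ratio would lower them as well. For 65.1% of 20935 genes of the same dek44 range that were above 0 in wild type, the length found from dek44 alone equalled the length found from both libraries. For the 163 genes the smallest dek44 reads ran from 7 to 732 with a median of 32. For the 20935 genes the median was 154. By smallest read number, 155 of the 163 reached 10, 61 reached 50 and 18 reached 100, so these counts are minimums too.

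**Figure D3:**
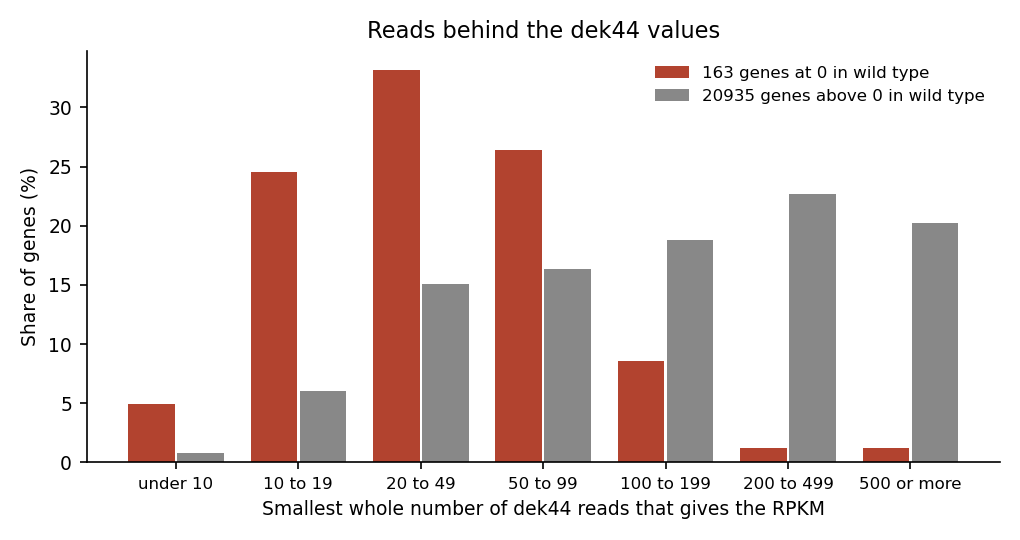
Bars give the share of genes (%) by the smallest whole number of dek44 reads that yields their RPKM, for the 163 genes at 0 in wild type and for the 20935 genes above 0 in wild type within the same dek44 RPKM range. By this smallest number the 163 genes are concentrated below 100 reads, and 4 of them reach 200 or more.

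A count of 0 in wild type allows up to 3 reads, and for a short gene model that is not a low level. A fold above 2 against that floor follows from the rule for any gene model of 100 bases or more. The fold was above 5 for 127 of 163 genes, above 10 for 79, above 20 for 44 and above 50 for 5. The lower end of the 95% exact binomial interval was above 10 for 69 genes and above 2 for 155. With the median ratio of genes set to 1, 76 genes still met the rule, and this lower end was above 10 for 23 of them. Of the named genes, TIFY15, pr5, wip1, cycD1, ts2 and ARGOS4 no longer met it. The weakest of the 163 was GRMZM2G119081, listed as a transcribed pseudogene, with at least 7 reads and at least 2.15-fold (lower end 1.33). Next came GRMZM2G041493, GRMZM2G172091, GRMZM2G573072 and AC191704.3_FG008, with at least 8 reads each. By read number, GRMZM2G149930 came after GRMZM2G075315, GRMZM6G257110, GRMZM2G152822 and PIP2-4. It had 10.6 RPKM in dek44 and 0 in wild type, from at least 184 reads, at least 56.6-fold higher (lower end 45.6).

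The smallest possible lengths were short in the set, and the true lengths may be longer. The smallest possible length had a median of 248 bases over the 163 genes and 509 bases over the 20935 genes above 0 in wild type. A gene model with few bases collects few reads at any RPKM, so the limit of 0 reads favours short models and the lengths are no measure independent of the rule. Of the 163 genes, 40 had a smallest length of at least 500 bases, and 25 of these were matched in RefSeq.

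Fewer of the 163 genes were annotated. RefSeq entries were found for 48 of 163 genes (29.4%), beside 53.2% of the 20935 genes above 0 in wild type and 40.3% of all gene models. The median smallest length was 514 bases for the 48 and 181 bases for the other 115. Matching thus went with smallest length within the set, and the shares were not compared at like lengths. Of the 48, 46 were protein-coding, 1 was a long non-coding RNA (GRMZM2G165836, at 8.91 RPKM in dek44 and 0 in wild type) and 1 was the transcribed pseudogene. The 48 and the other 115 reached like levels, with median dek44 RPKM of 5.02 and 4.86. Their support differed, with a median of 72 smallest reads for the 48 and 25 for the 115. The lower end of the fold was above 10 for 33 of the 48 genes and 36 of the 115. Gene models named after a BAC clone made up 10 of the 163 (6.13%), beside 5.54% of all gene models.

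The limits of the rule cut through a continuous range. Just inside were GRMZM2G047234 at 3.003 RPKM in dek44, and GRMZM2G339743 and GRMZM2G531565 at 3.02. Just outside, also at 0 in wild type, were GRMZM2G123432 at 2.97, GRMZM2G312069 at 2.93 and GRMZM2G127635 at 2.93 RPKM in dek44. On the wild-type side the nearest were genes with 1 smallest read in wild type. These were GRMZM2G062576, at 3.15 RPKM in dek44 and 0.0149 in wild type, GRMZM2G000566, at 3.496 in dek44 against 0.0177 in wild type, and GRMZM2G441541, at 4.02 in dek44 against 0.0171 in wild type. The last is rbohD, a respiratory burst oxidase gene whose product makes reactive oxygen at the plasma membrane, with at least 254 reads in dek44. These genes missed the rule through a wild-type value that may rest on a single read.

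The same limits with the libraries exchanged gave far fewer genes. At 0 in dek44 and at 3 RPKM or more in wild type were 12 genes, or 0.029% of all gene models. After the same scaling of the median ratio to 1, 76 genes were on in dek44 alone and 12 in wild type alone. The highest were GRMZM2G514379, at 0 in dek44 and 12.7 RPKM in wild type, GRMZM2G106324, at 0 in dek44 and 9.91 RPKM in wild type, and the alpha zein gene z1C1_13 (GRMZM2G535393), at 0 in dek44 and 8.14 RPKM in wild type. Genes at 0 numbered 2697 in dek44 and 4877 in wild type, and genes at 3 RPKM or more numbered 22952 in dek44 and 18668 in wild type. As a share of the genes at 0 in the other library, 3.34% of 4876 were on in dek44, without gst20, and 0.445% of 2697 were on in wild type. The scaled shares were 1.56% on in dek44 and 0.445% on in wild type.

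**Figure D4:**
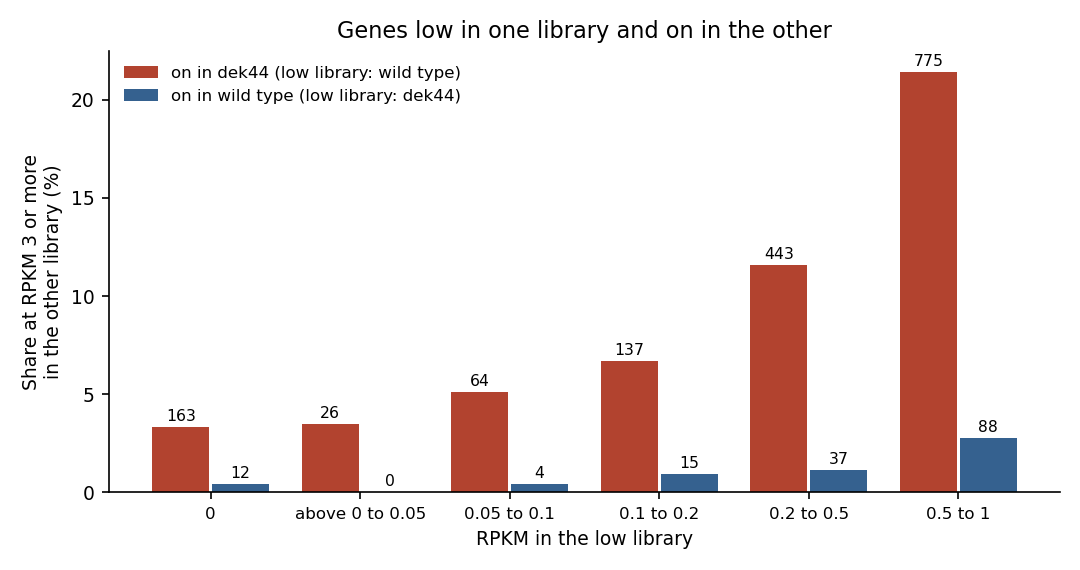
Bars give the share (%) of genes at 3 RPKM or more in one library among genes that are low in the other, by their RPKM in the low library, with the number of genes above each bar. The share on in dek44 is above the share on in wild type in every class, from 3.34% against 0.445% at an RPKM of 0 to 21.4% against 2.75% at 0.5 to 1. With the median ratio of genes set to 1 the order held in every class, with 1.56% against 0.445% at an RPKM of 0 and 10.01% against 4.65% at 0.5 to 1.

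Genes with a trace in wild type did the same. Of those above 0 and up to 0.05 RPKM in wild type, 26 of 746 (3.49%) were at 3 RPKM or more in dek44, and of those from 0.05 to 0.1, 64 of 1253 (5.11%). With dek44 as the low library, the counts were 0 of 454 and 4 of 931. With the median ratio of genes set to 1 the counts on in dek44 were 7 of 746 and 25 of 1253, and those on in wild type were 0 of 1061 and 17 of 1433. The excess on the dek44 side was thus not particular to a wild-type value of 0.

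Most of the 4877 genes at 0 in wild type stayed low in dek44. Among them 1901 (39.0%) were at 0 in dek44 as well, 2373 (48.7%) were above 0 and below 1 RPKM, and 439 (9.001%) lay from 1 to below 3.

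The genes next to the 163 genes in the genome were not used by the rule. For the 48 matched genes, the nearest measured gene on each side was taken in the RefSeq order, with at most 2 annotated genes between. This gave 61 neighbours of 41 genes, of which 50 reached 1 RPKM in either library. Of these, 20 (40%) were higher in dek44 and 1 was lower, beside 35.95% higher among the neighbours of all matched genes and 31.6% of all genes. With the median ratio set to 1, 9 of 50 (18%) were higher, beside 14.4% among the neighbours of all matched genes. The median log2 ratio of the neighbours was 0.74, and it was 0.72 for the neighbours of all matched genes. Shares and medians of the neighbours were thus close to those around other genes. Of the 61 neighbours 0 belonged to the set, beside 41 of 14510 neighbours of all matched genes. At so small a share, 61 neighbours are too few for the 0 to say anything about grouping.

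**Figure D5:**
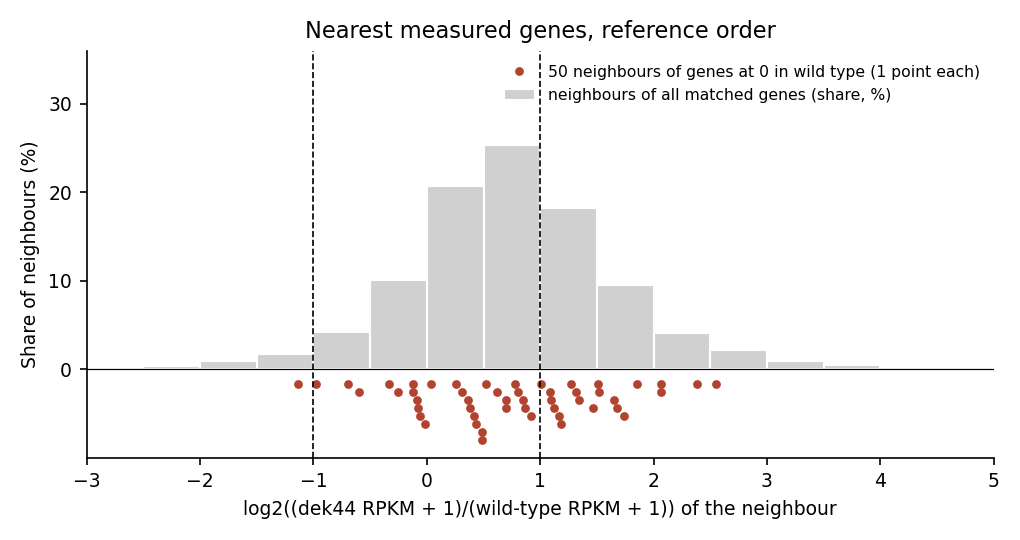
Grey bars give the share (%) of log2((dek44 RPKM + 1)/(wild-type RPKM + 1)) values among neighbours of all matched genes, and red points below the axis, stacked for legibility, give the 50 neighbours of genes at 0 in wild type. Dashed lines mark 2-fold, and 20 of the 50 points lie beyond the upper one and 1 beyond the lower one.

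Single pairs differed widely. Next to ARGOS4, GRMZM2G126302 had 154 RPKM in dek44 and 150 in wild type, and next to ts2, GRMZM2G455828 had 62.6 RPKM in dek44 and 50.4 in wild type. These genes were close to equal in both libraries beside a gene with no wild-type read. The measured neighbours on the other side were higher. By ARGOS4, GRMZM2G117615 had 22.5 RPKM in dek44 and 9.45 in wild type, and by ts2, GRMZM2G153450 had 37.8 and 15.1. Neither counted as higher with the median ratio set to 1. GRMZM2G018082, next to GRMZM2G176390, had 6.14 RPKM in dek44 and 0.216 in wild type. GRMZM2G166230, at 4.17 RPKM in dek44 and 0 in wild type, lay between GRMZM2G064163, at 49.5 in dek44 against 8.69 in wild type, and GRMZM2G166245, at 1.94 in dek44 against 0.0339 in wild type. GRMZM2G420758, at 5.75 RPKM in dek44 and 0 in wild type, had GRMZM2G420733 beside it, at 4.78 in dek44 against 0.383 in wild type. The neighbour that was lower, GRMZM2G055717, had 241 RPKM in dek44 and 530 in wild type beside GRMZM2G130173, at 5.25 in dek44 and 0 in wild type.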

How the data were processed

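The deposited values are RPKM, computed by the authors, for 41406 gene models in 1 library each of dek44 and wild type. Per the submitters' processing notes, Bowtie 0.12.2 and the build B73 RefGen_v3 were used. How reads were counted, whether strand was used, how reads with several matches were treated and whether replicates were pooled is not stated in the sources used here, so near-identical, overlapping and antisense genes are uncertain. Library totals were taken as the largest at which the lowest values sit on whole gene lengths. With them 39505 of 39505 genes above 0 came out whole (tolerance 1e-06 reads, relative 1e-09) at a length of at least 100 bases. A factor shared by both totals was not tested. Bounds use a floor of 3 wild-type reads and take the dek44 reads as exact. Intervals are 95% exact conditional binomial (Clopper-Pearson), for counting error only. Names and gene order came from RefSeq, assembly Zm-B73-REFERENCE-NAM-5.0, which is another build, so no coordinates are given. Of the identifiers 16689 (40.3%) matched.

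The genes, the name families and the alternatives were chosen with earlier results of these data known. Genes named are those with a RefSeq name, the 12 highest, the 5 with most and the 5 with fewest reads, the 3 on each side of each limit, the 3 highest of the exchanged rule and any members within 2 genes of each other (0 were found). Relatives and neighbours named besides these were chosen after their values were seen. With 1 column per genotype no test was made. Python 3.11.15, numpy 2.4.6, pandas 2.3.3, scipy 1.17.1 and matplotlib 3.10.9 were used.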

Additional observations from a re-analysis of the deposited data

How the results depend on the processing

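The number of genes at 0 in wild type and on in dek44, 163 as reported with a median of 4.87 RPKM, was 262 (median 3.48) with a limit of 2 RPKM in dek44 and 77 (median 8.13) with 5. The exchanged rule, 12 as reported, gave 23 and 6. With the median ratio of genes set to 1 the counts were 76 and 12. With a smallest read number of at least 20 they were 115 (median 5.59) and 4. With a smallest length of at least 500 bases they were 40 (median 4.08) and 1. Genes whose lower fold limit was above 10, 69 of 163 as reported, numbered 42 of 77 with the limit of 5 RPKM. They were 23 of 76 after setting the median ratio to 1 and 38 of 40 with 500 bases. A wild-type limit of 0.05 RPKM kept these counts within 1.5 times (189, 12 and 95), as did, after the data were seen, keeping gst20 (164) and a looser tolerance of 0.001 reads (60). The 9529 genes at least 2-fold higher were 4192 with a pseudocount of 5 and 3712 after setting the median ratio to 1. Neighbours at least 2-fold higher, 20 as reported, were 9 with that scaling. More genes were on in dek44 alone than in wild type alone under each of the 6 settings that recomputed both counts (limits of 2 and 5 RPKM, 0.05 RPKM in the silent library, scaling, 20 reads and 500 bases). No paired analysis was possible because there was 1 column per genotype, so leaving out replicates was not run either.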
